A study of Homo sapiens with 4 samples.

Results

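Described here are the regions of an HNF4A binding experiment that lie nearest to microRNA genes. A region belongs to the set if the gene the authors list as closest to it is named MIR or MIRLET followed by a digit, in all 3 deposited tables. Under this rule 162 of 5326 regions qualified, which is 3.04% of them, and they lay nearest to 135 microRNA genes on 20 chromosomes. Another 9 regions, nearest to long non-coding host genes whose names end in HG, were left out. The rule used the gene names alone and no read numbers.

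The study mapped where HNF4A, a nuclear receptor that drives liver gene expression, sits on DNA in HCCLM3, a metastatic human liver cancer line. Chromatin immunoprecipitation with an antibody to HNF4A or with a nonspecific IgG was followed by sequencing, at high and at low glucose. Each of the 4 groups (HNF4A at high glucose, IgG at high glucose, HNF4A at low glucose, IgG at low glucose) is 1 library. All cells were stable lines transduced with a lentivirus that carried a full-length cDNA under a viral promoter. The labels do not name that cDNA, the glucose concentrations, or whether a line is 1 clone. They give the same high-glucose growth medium for every library, including those named low glucose. There was no replicate check on any difference below, and each ratio compares libraries rather than conditions. Immunoprecipitated DNA holds no expression levels, so the cell line was not checked against marker genes.

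MicroRNAs are short RNAs cut from hairpin transcripts by Drosha with DGCR8 in the nucleus and by Dicer in the cytoplasm. Loaded on an Argonaute protein, they pair with messenger RNAs, mostly through the seed, and lower their translation or stability. Many microRNA genes sit inside a host gene and share its transcript, while others have promoters of their own. In hepatocytes some microRNAs are abundant and act in lipid, bile acid and glucose metabolism, and several others are altered in liver cancer.

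Of the 135 genes, 119 matched an entry in the RefSeq microRNA table (GRCh38.p14) and 117 of them had a mature sequence there, 165 sequences in all. They were 17 to 24 bases long and carried 161 distinct seeds. Mature sequences are printed 5′ to 3′ from RefSeq, with the seed (bases 2 to 8) in capitals. The first set holds microRNAs known for their part in liver or in liver cancer, or as members of the let-7 family, whose genes lay nearest to a region.
hsa-miR-194-5p: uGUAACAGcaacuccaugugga
hsa-miR-21-5p: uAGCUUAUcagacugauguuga
hsa-miR-34a-5p: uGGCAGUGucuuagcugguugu
hsa-miR-181b-5p: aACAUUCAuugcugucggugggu
hsa-let-7a-5p: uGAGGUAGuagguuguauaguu
The next set shows the seeds that mature microRNAs of different genes had in common. Among the 117 genes with a mature sequence there were 4 such seeds. Genes without one could not be compared. One of the 4 is that of miR-194 above, which is made identically from MIR194-1 and MIR194-2.
hsa-miR-193a-3p: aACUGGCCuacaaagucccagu
hsa-miR-193b-3p: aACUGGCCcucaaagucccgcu
hsa-miR-3922-3p: uCUGGCCUugacuugacucuuu
hsa-miR-3176: aCUGGCCUgggacuaccgg
hsa-miR-6731-5p: uGGGAGAGcaggguauugugga
hsa-miR-8085: uGGGAGAGaggacugugaggc
Counted over all positions, miR-193a-3p and miR-193b-3p were alike at 18 of 22. The pair miR-3922-3p and miR-3176 matched at 10 of 19 positions, and miR-6731-5p and miR-8085 at 12 of 21. Each count includes the 7 seed bases, which match because the pairs were chosen by a shared seed. The last set holds some of the microRNAs whose regions had high or low HNF4A ratios, or ratios that differed between glucose levels. It also holds miR-3646, whose gene lies inside HNF4A.
hsa-miR-4642: aUGGCAUCguccccugguggcu
hsa-miR-4276: cUCAGUGAcucaugugc
hsa-miR-3128: uCUGGCAAguaaaaaacucucau
hsa-miR-670-5p: gUCCCUGAguguauguggug
hsa-miR-4272: cAUUCAACuagugauugu
hsa-miR-506-3p: uAAGGCACccuucugaguaga
hsa-miR-4783-5p: gGCGCGCCcagcucccgggcu
hsa-miR-135a-2-3p: aUGUAGGGauggaagccaugaa
hsa-miR-3646: aAAAUGAAaugagcccagccca
hsa-miR-92b-3p: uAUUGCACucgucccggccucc
hsa-miR-589-5p: uGAGAACCacgucugcucugag
hsa-miR-1253: aGAGAAGAagaucagccugca
hsa-miR-4436a: gCAGGACAggcagaaguggau
No 2 microRNAs of this last set have a seed in common. The hairpins of the member genes had a median GC content of 56.9% (110 hairpins), against 52.1% over the 1562 hairpins of the table.

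HNF4A reads exceeded IgG reads over most microRNA regions at both glucose levels. The median microRNA region held 50 HNF4A reads and 20.5 IgG reads at high glucose, and 33 and 16 at low glucose. Over all regions the medians were 50 and 26 at high glucose, and 35 and 18 at low glucose. The HNF4A libraries were thus near those of all regions, and the IgG library at high glucose was lower over the microRNA regions. Per kilobase of region and scaled by relative library size, the member medians were 43.9 for HNF4A and 19.4 for IgG at high glucose. Over all regions these levels were 41.7 and 25.1. Region length was similar, with a median of 993.5 bp for microRNA regions (189 to 5021 bp) and 1030 bp for all.

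Ratios below are log2 values of scaled HNF4A reads over scaled IgG reads, so that 1 is a 2-fold excess. The range in brackets is an exact 95% counting interval. It covers counting error only, not variation between libraries, and it takes reads as independent, which PCR copies are not. At high glucose, 91 of 162 microRNA regions (56.2%) lay at least 2-fold above IgG, where 41.6% of all regions did. The counting interval lay wholly above 0 in 113 of them (69.8%), against 55.2% of all regions, and wholly below 0 in 0, against 2.07%. By sign alone, 145 were higher than IgG and 17 lower (84.2% and 15.8% of all regions), and the median log2 ratio was 1.19 against 0.79 over all regions. With the median of all regions subtracted, 108 of the 162 stayed above 0 (66.7%), and 44 remained at least 2-fold above it (27.2%; all regions 18.0%). Such centring puts 50% of all regions above 0 by construction.

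At low glucose, 95 of 162 microRNA regions (58.6%) lay at least 2-fold above IgG, against 46.8% of all regions. Intervals above 0 were found for 108 (66.7%; all regions 56.2%) and intervals below 0 for 0 (0.713%). By sign, 151 members were above IgG and 11 below it (91.5% and 8.51% of all regions), with a median log2 ratio of 1.13 against 0.94. Centring left 102 members above 0 (63.0%) and 21 at least 2-fold above the median of all regions, which is 13.0% of members and 13.4% of all regions.

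**Figure D1:**
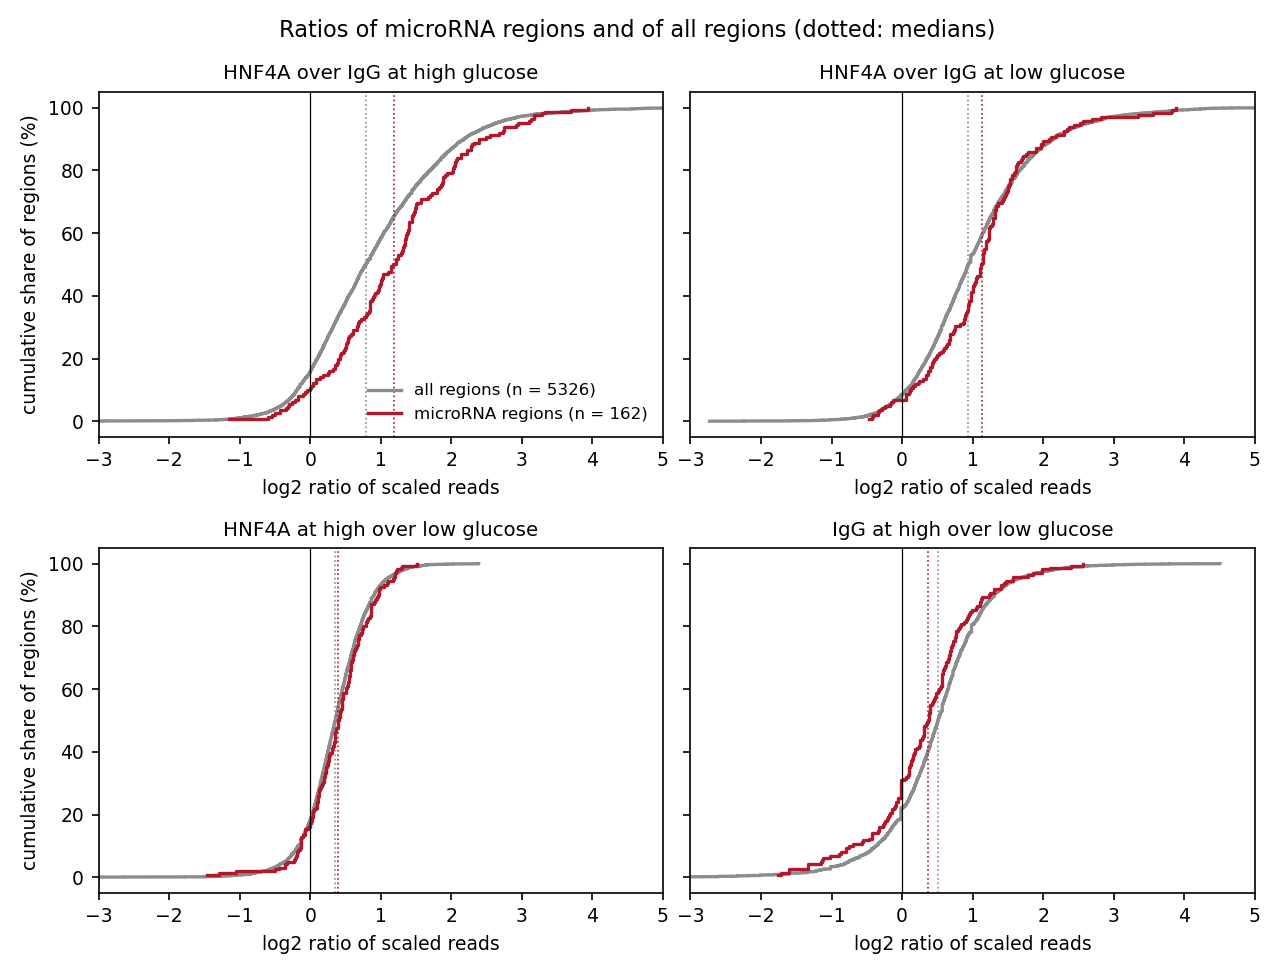
Cumulative share of regions (%) against the log2 ratio of scaled reads, for HNF4A over IgG (upper panels, by glucose level) and for each antibody at high over low glucose (lower panels), 1 library per side; red is the 162 microRNA regions, grey all 5326 regions, and dotted lines are medians. The red curve lies to the right of the grey one over most of the high glucose panel, with medians of 1.19 and 0.79, and the curves for HNF4A at high over low glucose nearly coincide, at 0.40 and 0.36.

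Region length moved with these ratios. Among regions from 500 to under 1000 bp, 69.9% of 73 microRNA regions and 58.5% of 2223 regions overall were at least 2-fold above IgG at high glucose. From 1000 to under 2000 bp the shares were 55.4% of 56 and 34.9% of 2234, and for 2000 bp or more 34.8% of 23 and 15.4% of 559. Below 500 bp the shares were 10% of 10 microRNA regions and 16.8% of 310 regions in all, and 4 of those 10 lay nearest to MIR4436A. At low glucose the shares below 500 bp were 50% and 28.7%. In the longer classes at low glucose they were 69.9% and 63.2%, 55.4% and 40.2%, then 34.8% and 18.1%. The part of length in the counts above was not tested further.

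Both glucose levels gave at least a 2-fold excess for 73 microRNA regions, which is 45.1% of them, against 31.4% of all regions. A further 18 reached it at high glucose alone (11.1%; all regions 10.3%), 22 at low glucose alone (13.6%; 15.5%), and 49 at neither (30.2%; 42.9%). Over the 162 regions, Pearson's r between the ratios of the glucose levels was 0.478 and Spearman's rho 0.527, against 0.561 and 0.607 over all regions. These are descriptions across regions that share the same 4 libraries and differ in length and depth.

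**Figure D2:**
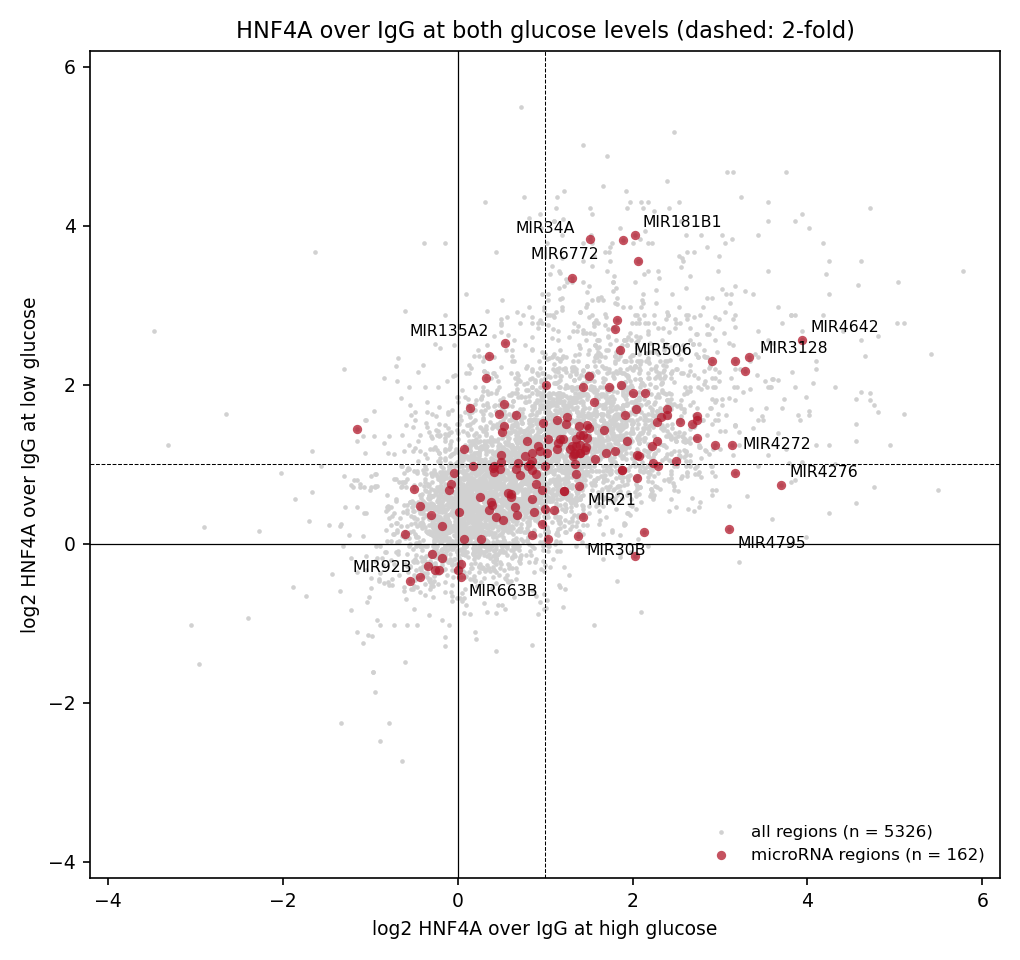
Log2 ratio of HNF4A over IgG at low glucose (vertical) against high glucose (horizontal), 1 point per region; red points are the 162 microRNA regions, grey points all 5326 regions, and dashed lines mark a 2-fold excess. The upper right corner past both dashed lines holds 73 red points, among them MIR4642, MIR3128 and MIR506, while MIR92B lies below 0 on both axes.

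The highest ratios at both glucose levels, among well-read regions, lay nearest to microRNAs of quite different settings. MIR506 belongs to an X-linked cluster known for its expression in testis, and its region (chrX:146262242-146263011, hg19) held 75 HNF4A reads and 9 IgG reads at high glucose and 50 and 10 at low glucose. Both HNF4A libraries stood well above both IgG libraries, with log2 ratios of 2.91 (1.91 to 4.10) and 2.30 (1.30 to 3.44). MIR4272 had the highest ratio at high glucose among the 81 members at or above the median level, 3.13 (2.01 to 4.50), from 68 HNF4A reads and 7 IgG reads over chr3:67346163-67347197. Its excess was smaller at low glucose, where 29 HNF4A reads and 12 IgG reads gave 1.25 (0.23 to 2.35).

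Among the 6 highest well-read regions at high glucose were also those of MIR4783 and MIR4651. MIR4783 lies within PROC, which encodes the anticoagulant protein C made by hepatocytes, and its region chr2:128212226-128213427 held 72 HNF4A and 13 IgG reads at high glucose, and 37 and 12 at low glucose. The HNF4A library was the higher one each time, at 2.32 (1.46 to 3.30) and 1.6 (0.63 to 2.67). MIR4651 lies within POR, the reductase that feeds electrons to cytochrome P450 enzymes. Of its 2 regions, chr7:75549539-75550591 held 83 and 16 reads at high glucose and 39 and 19 at low glucose, with ratios of 2.23 (1.45 to 3.10) and 1.01 (0.19 to 1.88). The other, chr7:75543956-75545505, had 78 and 52 reads at high glucose, with a ratio of 0.44 and an interval that reached below 0 (-0.09 to 0.97). Of these neighbouring regions, 1 had intervals above 0 at both glucose levels, and for the other an excess was not detectable at this depth.

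MIR1288, inside the GPI anchor synthesis gene PIGL, had an excess in both of its regions. The region chr17:16189029-16190022 held 92 HNF4A and 13 IgG reads at high glucose and 55 and 19 at low glucose, with ratios of 2.68 (1.83 to 3.64) and 1.51 (0.73 to 2.34). MIR3692, inside the palmitoyltransferase gene ZDHHC14, completed the 6 highest at high glucose, at 2.28 (1.44 to 3.21), with 75 HNF4A and 14 IgG reads over chr6:157951673-157953284. At low glucose it stood at 1.53 (0.68 to 2.45).

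Regions with fewer reads reached higher ratios with wider intervals. MIR4642, within the spliceosome gene CDC5L, had the highest ratio of all members at high glucose, 3.94 (1.98 to 7.04), over chr6:44461545-44462339. That ratio rests on 34 HNF4A reads and 2 IgG reads, and the low glucose libraries held 30 and 5, a ratio of 2.56 (1.18 to 4.28). MIR3128 lies within NFE2L2, the gene of the oxidative stress factor NRF2. Its region chr2:178116562-178117284 held 67 and 6 reads at high glucose and 31 and 6 at low glucose, with ratios of 3.33 (2.14 to 4.83) and 2.34 (1.06 to 3.89). With so few IgG reads, the difference of these ratios, 0.99 (-1.04 to 3.01), had an interval that held 0. Both regions of MIR670, within the fatty acid elongation gene HSD17B12, were also high, at 3.29 (1.98 to 4.97) and 2.40 (1.13 to 3.94) at high glucose.

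A partly different group led at low glucose. MIR135A2, in the long non-coding gene RMST, had the highest ratio among well-read members, 2.53 (1.43 to 3.82), over chr12:98003630-98004265. It held 47 HNF4A and 8 IgG reads at low glucose but 21 and 13 at high glucose, where the ratio was 0.55 (-0.52 to 1.67). Following MIR506 came MIR548D2 (chr16:22691807-22692606) at 2.0 (1.11 to 3.0) and MIR3193 (chr20:30198216-30199316) at 2.0 (1.19 to 2.89). MIR3193 lies between ID1 and COX4I2, and it held 141 HNF4A and 35 IgG reads at high glucose and 65 and 16 at low glucose, a similar excess at both levels. MIR4290 stood at 1.90 (1.06 to 2.83), and a region of MIR4436A at 1.71 (0.75 to 2.78). RefSeq places MIR548D2, along with MIR548AO, MIR548O2 and MIR3654, on another chromosome than the one the authors' regions are on, so those 4 names are uncertain.

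At 8 microRNA regions HNF4A was below IgG at both glucose levels, nearest to MIR92B, MIR589, MIR1253, MIR3190, MIR3609 and, with 3 regions, MIR4436A. At high glucose MIR3190 counted as below by sign alone, since HNF4A there was level with IgG after scaling. MIR92B belongs to the family of miR-25 and miR-92a, and lies on chromosome 1 between MUC1 and THBS3. Its region chr1:155163990-155166563 held 127 HNF4A and 141 IgG reads at high glucose and 85 and 91 at low glucose, at ratios of -0.30 (-0.65 to 0.06) and -0.12 (-0.57 to 0.32). MIR589, in the F-box gene FBXL18, had 42 and 48 reads at high glucose and 21 and 25 at low glucose, at -0.34 (-0.97 to 0.29) and -0.28 (-1.19 to 0.62). For MIR1253, inside CCDC92B, the ratios were -0.55 (-1.27 to 0.16) and -0.46 (-1.46 to 0.51). The lowest well-read region at high glucose, that of MIR4436A at chr2:89867854-89868418, held 30 HNF4A and 41 IgG reads there, a ratio of -0.60 (-1.33 to 0.12), and 31 and 28 at low glucose, a ratio of 0.12 (-0.66 to 0.91). No interval of the 8 regions left out 0 at either level. They are 4.94% of members, and 4.06% of all regions were below IgG at both levels. At low glucose the other lowest well-read regions were those of MIR663B (chr2:133004640-133005641) at -0.42 (-0.96 to 0.11), MIR4485 at -0.25 (-1.10 to 0.59) and MIR3609, in the histone acetyltransferase cofactor gene TRRAP, at -0.18 (-0.69 to 0.33).

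**Figure D3:**
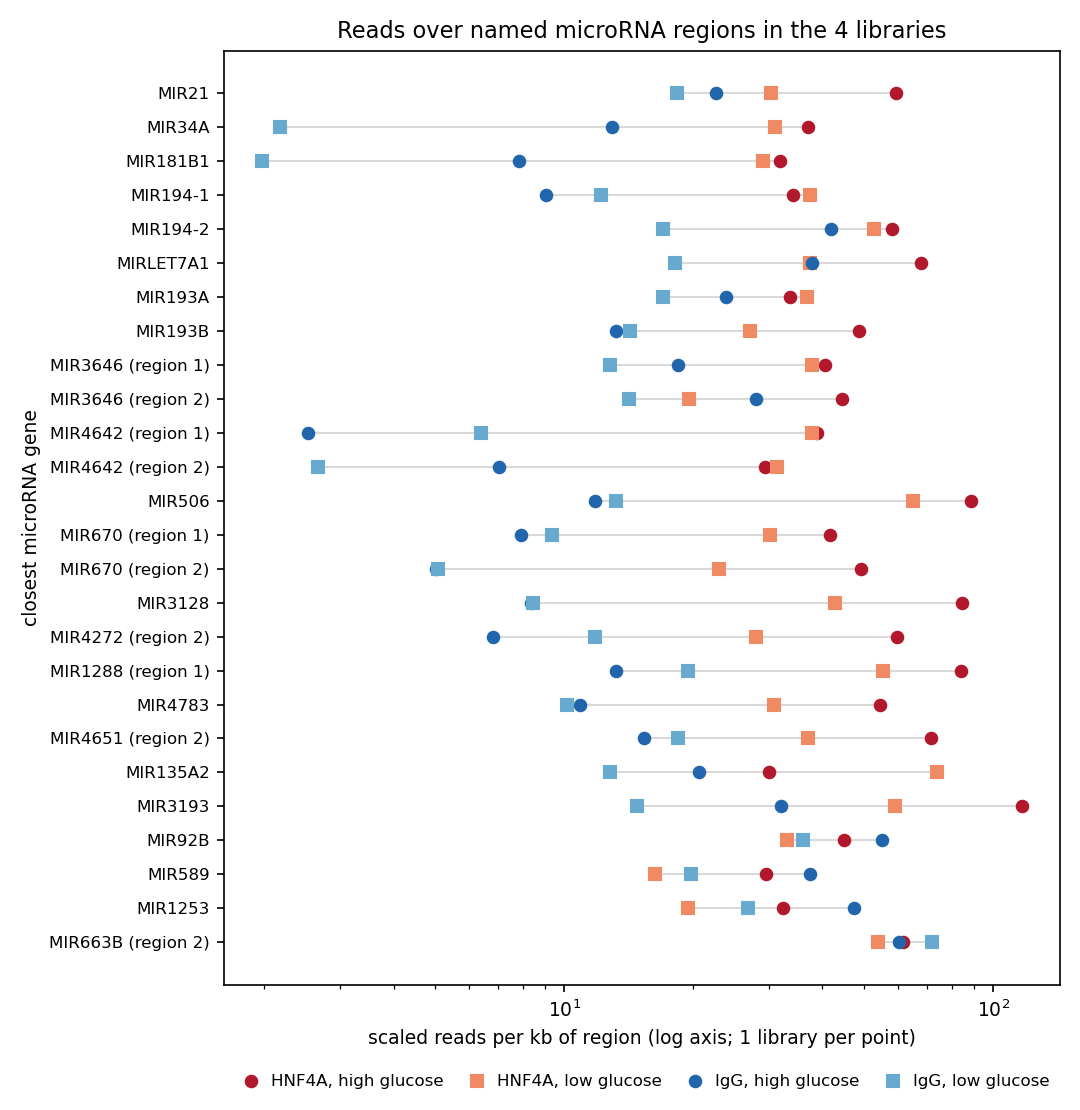
Scaled reads per kb of region (log axis) in each of the 4 libraries for named microRNA regions, 1 point per library; circles are high glucose and squares low glucose, with HNF4A in red and orange and IgG in dark and light blue. For MIR506, MIR4642 and MIR3128 both HNF4A points lie to the right of both IgG points, while for MIR92B, MIR589 and MIR1253 each IgG point lies to the right of the HNF4A point of its glucose level.

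Some microRNAs with known roles in liver were among the members. For comparison with the counts that follow, 110 of the 1562 hairpins of the RefSeq table belonged to member genes. Of 26 microRNA genes listed as abundant in liver, 3 had a region, as did 2 of 27 described as raised in liver cancer, 1 of 43 described as lowered in it, and 1 of the 12 genes of the let-7 family. In each of these 7 regions HNF4A exceeded IgG at high as well as at low glucose, as it did in 87.7% of members and 79.7% of all regions. MIR194-1 lies with MIR215 inside IARS2 and MIR194-2 lies with MIR192, and both make miR-194, a microRNA of liver and intestine. The region of MIR194-1 (chr1:220295253-220295919) held 25 HNF4A and 6 IgG reads at high glucose and 25 and 8 at low glucose, at ratios of 1.91 (0.59 to 3.49) and 1.62 (0.42 to 2.98). The region of MIR194-2 (chr11:64660687-64661407) held 46 and 30 reads at high glucose and 38 and 12 at low glucose. Its ratio was 0.47 (-0.22 to 1.18) at high glucose, where IgG was also high, and 1.64 (0.67 to 2.71) at low glucose. MIR30B, a neighbour of MIR30D on chromosome 8, showed the opposite order, with a ratio of 1.38 (0.53 to 2.30) at high glucose from 46 and 16 reads, and of 0.10 (-0.80 to 1.0) at low glucose from 24 and 22.

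MIR21, a microRNA raised in many cancers and encoded at the end of the autophagy gene VMP1, had an excess at high glucose. Its region chr17:57906305-57907195 held 58 HNF4A and 20 IgG reads there, a ratio of 1.39 (0.63 to 2.20), and 27 and 16 at low glucose, a ratio of 0.73 (-0.22 to 1.72). MIR181B1, next to MIR181A1, held 18 and 4 reads at high glucose over chr1:198814945-198815459, a ratio of 2.02 (0.42 to 4.05). At low glucose it held 15 HNF4A reads and a listed 1 for IgG, which may stand for 0 or 1, and the ratio of 3.88 has an interval from 1.18 to 9.28. MIR34A, a target of p53 that restrains cell growth, held 38 and 12 reads at high glucose over chr1:9223587-9224520 and 29 and 2 at low glucose. Its ratios were 1.52 (0.55 to 2.59) and 3.83 (1.85 to 6.94), and IgG differed more between glucose levels, at a log2 ratio of 2.57 (0.40 to 5.77) for high over low, than HNF4A, at 0.25 (-0.48 to 1.0).

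MIRLET7A1 heads a cluster with MIRLET7F1 and MIRLET7D, and let-7 microRNAs repress growth genes such as those of the RAS family. Its region chr9:96927759-96929948, the longest of the 7 at 2190 bp, held 163 HNF4A and 82 IgG reads at high glucose and 82 and 39 at low glucose. Reads were more numerous at high glucose with both antibodies, at a log2 ratio of 0.86 for HNF4A and 1.06 for IgG, and the ratios over IgG were 0.84 (0.45 to 1.25) and 1.05 (0.48 to 1.63).

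Among the genes with a mature sequence, those whose microRNAs share a seed lay on different chromosomes from each other. Each had HNF4A above IgG at both glucose levels, as did 79.7% of all regions. MIR193B, next to MIR365A, had ratios of 1.88 (1.05 to 2.80) at high glucose and 0.93 (0.01 to 1.90) at low glucose over chr16:14395844-14396986, with 61 and 15 reads, then 31 and 16. MIR193A had 0.49 (-0.15 to 1.16) and 1.12 (0.40 to 1.88) over chr17:29876278-29877714, with 53 and 34 reads, then 53 and 24. MIR3922 stood at 1.70 (0.86 to 2.63) and 1.14 (0.11 to 2.26), and MIR3176 at 0.85 (0.16 to 1.58) and 0.93 (0.05 to 1.87). MIR6731, inside the RUNX3 gene, stood at 1.73 (0.38 to 3.32) and 1.97 (0.52 to 3.74), and MIR8085, inside BCL3, at 1.34 (0.68 to 2.05) and 1.14 (0.37 to 1.95). Within each pair the intervals overlapped at both glucose levels.

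Most of the microRNA genes lie inside another gene. By the RefSeq annotation of GRCh38.p14, used for names and neighbours only, 89 lay within a protein-coding gene, 19 within a non-coding gene only and 23 in no other gene, while 20 had another microRNA gene within 10 kb. The 104 regions of microRNAs within a protein-coding gene had median ratios of 1.30 (high glucose) and 1.14 (low glucose), while the other 58, those within a non-coding gene among them, had 1.02 and 1.11. At least a 2-fold excess was found in 61 (58.7%) and 63 (60.6%) of the 104, and in 30 (51.7%) and 32 (55.2%) of the 58. Over all regions the shares were 41.6% and 46.8%. The 58 include the 7 regions of MIR4436A, whose counts are uncertain. They also include the regions of the 4 genes that RefSeq places on another chromosome, for which no host was sought. The host is that of the microRNA gene, and whether a region lies within that host was not checked. The 2 regions of MIR4642, for example, spread over 150 kb. No annotation of hg19 was used here, so the place of a region (promoter, exon, intron or outside the host) is not given.

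MIR3646 lies inside HNF4A itself, the gene of the immunoprecipitated factor. Its region chr20:43047814-43048688 held 39 HNF4A and 16 IgG reads at high glucose and 33 and 11 at low glucose, with ratios of 1.14 (0.27 to 2.08) and 1.56 (0.54 to 2.69). The second region, chr20:43052330-43053047, held 35 and 20, then 14 and 10, with ratios of 0.66 (-0.17 to 1.53) and 0.46 (-0.82 to 1.79). A region listed for HNF4A itself began 18.2 kb from the first and 22.8 kb from the second, and its ratios were 0.64 (-0.11 to 1.41) and 1.02 (0.14 to 1.94). The first MIR3646 region was thus the only one of the 3 with an interval above 0 at both glucose levels.

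Over the whole set, 20 microRNA genes had a region of their own protein-coding host within 50 kb, and 40 microRNA regions had a region of a gene other than that host within this distance. For MIR3128, the region of its host NFE2L2 began 11.3 kb away and had ratios of 0.97 (0.57 to 1.38) and 1.46 (0.90 to 2.05), lower than those of the microRNA region. The POR region began 13.3 kb from the higher MIR4651 region and had 1.63 (0.91 to 2.41) and 1.20 (0.01 to 2.51). It also held 72 HNF4A reads at high glucose against 21 at low glucose, a log2 ratio of 1.64. The DHRS3 region, 22.7 kb from a region of MIR6730, which lies in that retinal reductase gene, had 0.94 (0.21 to 1.71) and 2.82 (1.58 to 4.34).

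A single region was found for 116 of the microRNA genes, and 19 genes had 2 or more, 46 regions between them. The regions of 1 gene spanned a median of 0.82 on the log2 scale (high glucose) and 0.80 (low glucose), and the span was over 1 for 7 and 5 of the 19 genes. The 2 regions of MIR718, near IRAK1 on the X chromosome, ranged from 1.48 to 1.67 at high glucose and from 1.34 to 1.43 at low glucose. Those of MIR8068, inside METTL15, ranged from 1.44 to 1.48, then from 1.37 to 1.5. Each of these 4 regions was at least 2-fold above IgG at both levels, as were both regions of MIR1288, MIR4642, MIR670 and MIR6504.

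MIR4272 had the widest span at high glucose. Beside its region at 3.13, the second, chr3:67164089-67164668, had 0.39 (-0.48 to 1.29) at high glucose. MIR4668, within the glucosylceramide synthase gene UGCG, had 3 regions from 0.67 to 2.06 at high glucose and 0.82 to 1.63 at low glucose. MIR6730 had 1.22 and 2.74 at high glucose and 0.66 and 1.56 at low glucose. MIR5188 had 0.99 and 1.1, close together, at high glucose and, in the same order, 0.97 and 0.42 at low glucose. The regions of MIR6504 were close at high glucose, at 1.31 and 1.44, and further apart at low glucose, at 3.34 and 1.97. MIR4714, within the insulin-like growth factor receptor gene IGF1R, had 1.36 and 2.02 at high glucose but, in the same order, 0.88 and -0.15 at low glucose. MIR554, within TUFT1, stayed below a 2-fold excess in both regions, at 0.08 and 0.90, then 0.05 and 0.75. MIR548D2 had -0.31 and 1.01, then 0.37 and 2.0, and MIR663B had 0.03 and 1.0, then -0.42 and 0.44. The 3 regions of MIR4470 were the longest group, 3450 to 5021 bp, and had 0.68 to 1.03 at high glucose and 0.05 to 0.39 at low glucose.

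MIR4436A had 7 regions on chromosome 2, 6 of them between position 89867352 and position 89878650 and 1 from 90449371 to 90450173. It has near-identical copies named MIR4436B1 and MIR4436B2, and no source used here says how reads with several matches were placed, so its counts are uncertain. At high glucose the ratios ran from -1.15 to 0.27 and at low glucose from -0.42 to 1.71. The lowest was the only microRNA ratio at least 2-fold below IgG at high glucose, where 1.05% of all regions were. It came from the shortest member, 189 bp, with 10 HNF4A and 20 IgG reads, and 25 and 9 at low glucose. The region with the most reads, chr2:89874846-89875509, held 175 and 131 reads, then 146 and 138, with ratios of 0.27 (-0.06 to 0.61) and 0.06 (-0.29 to 0.40).

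**Figure D4:**
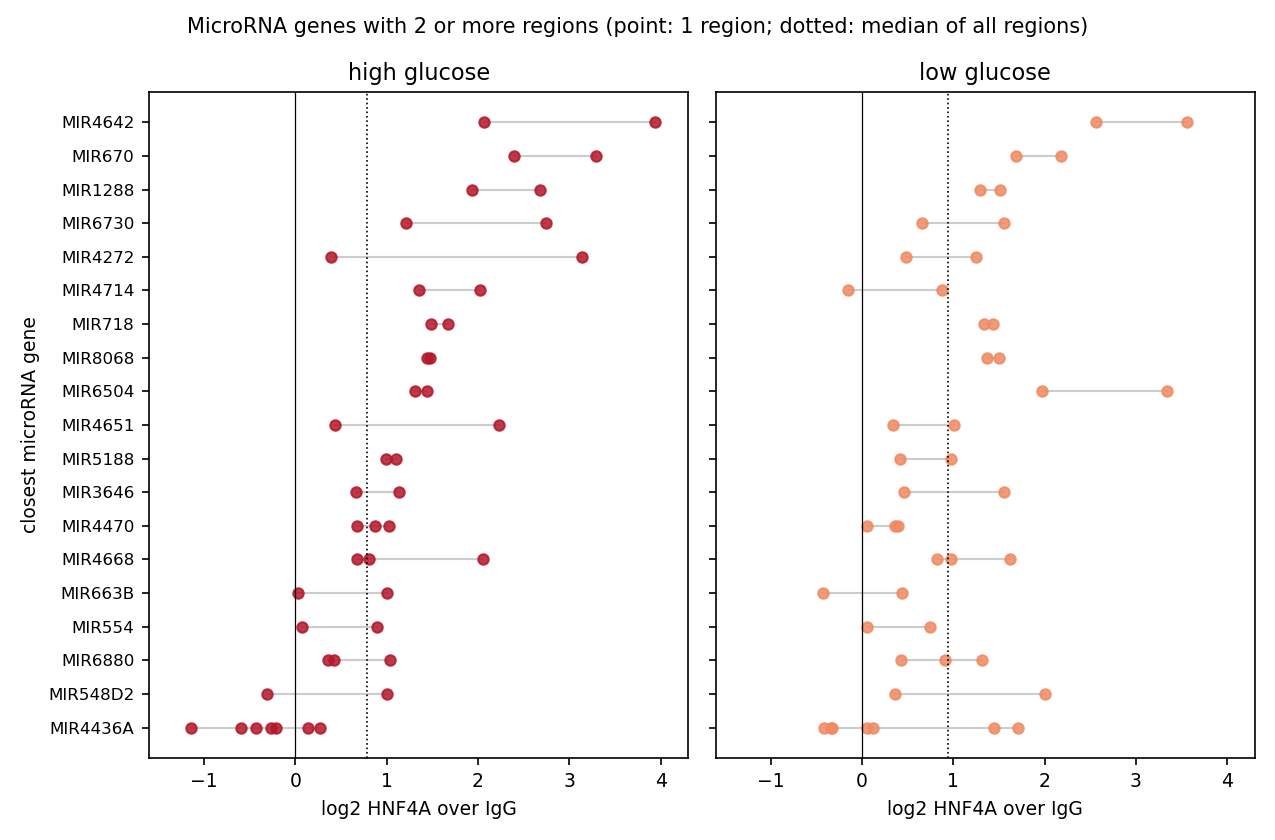
Log2 ratio of HNF4A over IgG for each region of the 19 microRNA genes with 2 or more regions, at high glucose (left) and low glucose (right); each point is 1 region, the grey line joins the regions of a gene and the dotted line is the median of all 5326 regions (0.79 and 0.94). MIR4642 and MIR670 lie to the right of both dotted lines with all their regions, and the 7 points of MIR4436A reach from -1.15 to 0.27 on the left and from -0.42 to 1.71 on the right.

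Pairs of different microRNA genes with regions within 50 kb were few. MIR3190 and MIR3191, which overlap within the apoptosis gene BBC3 on chromosome 19, had regions that began 35.7 kb apart. The MIR3190 region (chr19:47693237-47694422) held 52 HNF4A and 47 IgG reads at high glucose, level with IgG after scaling, and -0.33 (-1.24 to 0.55) at low glucose. The MIR3191 region (chr19:47728946-47732678) held 199 and 138, then 123 and 84, with ratios of 0.38 (0.06 to 0.71) and 0.52 (0.11 to 0.94). On chromosome 5, the regions of MIR548AO and MIR2277 began 39.1 kb apart, with ratios of 1.56 (0.56 to 2.69) and 3.18 (1.13 to 6.32) at high glucose, the second from 20 HNF4A and 2 IgG reads.

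Between glucose levels, HNF4A reads were higher at high glucose over most microRNA regions, and so were they over most regions of the experiment. The high glucose library had more scaled HNF4A reads in 136 microRNA regions and fewer in 26 (81.8% and 18.2% of all regions), with a median log2 ratio of 0.40 against 0.36. At least a 2-fold excess was found in 12 of 162 (7.41%), against 6.78% of all regions, and at least a 2-fold deficit in 3, against 0.713%. Counting intervals lay above 0 in 50 (30.9%; all regions 25.8%) and below 0 in 2 (0.826%). Centred on the median of all regions, 90 of the 162 lay above 0 (55.6%). IgG reads were also higher at high glucose in 112 of the 162, where 77.9% of all regions were, and the median IgG ratio of 0.37 was close to that of HNF4A. IgG intervals lay above 0 in 27 members (16.7%; all regions 26.2%) and below 0 in 1 (1.93%).

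MIR1910, within C16orf74, had the largest HNF4A ratio of high over low glucose, 1.51 (0.67 to 2.42), with 50 reads against 16 over chr16:85753660-85754542. The IgG reads of that region were 13 and 7, a ratio of 0.88 (-0.55 to 2.44). The other 11 regions with a 2-fold excess were those of MIR3142, MIR6877, MIR548AO, MIR4668, MIR4795, MIR4276, MIR3646, MIR3190, MIR670, MIR4272 and MIR4714. The MIR3646 region among them held 35 HNF4A reads at high glucose against 14 at low glucose, a ratio of 1.19 (0.26 to 2.19). Its IgG reads of 20 and 10 gave 0.98 (-0.18 to 2.24). In MIR4272, HNF4A stood at 1.09 (0.45 to 1.77) while IgG stood at -0.79 (-2.38 to 0.67).

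Among members at or above the median HNF4A level, MIR4272 was followed by MIR1288 (chr17:16200042-16202153) at 0.99 (0.54 to 1.46), with 131 and 60 reads. MIR3193 stood at 0.98 (0.55 to 1.43), MIR3128 at 0.98 (0.34 to 1.64), MIR4651 at 0.95 (0.39 to 1.54) and MIR6876, within DOCK5, at 0.94 (0.27 to 1.64). The IgG ratios of these regions varied, at 1.11 (0.22 to 2.07) for MIR3193 and -0.02 (-1.92 to 1.89) for MIR3128, with intervals that overlapped. At the other end of the well-read members, MIR6827 stood at -0.22 (-0.83 to 0.38), MIR4718 at -0.15 (-0.59 to 0.28), MIR193A at -0.14 (-0.71 to 0.44) and a region of MIR663B at -0.14 (-0.72 to 0.45). None of these 4 intervals left out 0.

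HNF4A reads were at least 2-fold lower at high glucose in MIR135A2, the shortest MIR4436A region and MIR6829, all on few reads. MIR135A2 had -1.30 (-2.11 to -0.53), from 21 and 47 reads. The MIR4436A region had -1.46 (-2.68 to -0.35), from 10 and 25. MIR6829, within the kinase gene TNK2, had -1.05 (-2.40 to 0.19), from 9 and 17.

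Subtracting the log2 ratio over IgG at low glucose from that at high glucose gives the difference between glucose levels with the background of each level in it. It was above 0 in 86 microRNA regions and below 0 in 76, where 41.7% and 58.3% of all regions were, and its median was 0.03 against -0.15. Centred on the median of all regions, 105 of the 162 were above 0 (64.8%). It was 1 or more in 20 members (12.3%; all regions 8.49%) and -1 or less in 14 (8.64%; all regions 11.9%). The counting interval of the difference lay above 0 in 9 members (5.56%), against 4% of all regions, and below 0 in 5 (3.09%), against 7.42%. Those with the largest differences, MIR4276 and MIR4795, had opposite movements of the 2 antibodies. MIR4276, whose gene lies between CEP44 and HPGD, held 43 HNF4A and 3 IgG reads at high glucose and 17 and 10 at low glucose over chr4:175382568-175383514, a difference of 2.96 (0.74 to 5.57). MIR4795 held 38 and 4, then 15 and 13, over chr3:87255184-87255927, a difference of 2.92 (0.91 to 5.17).

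**Figure D5:**
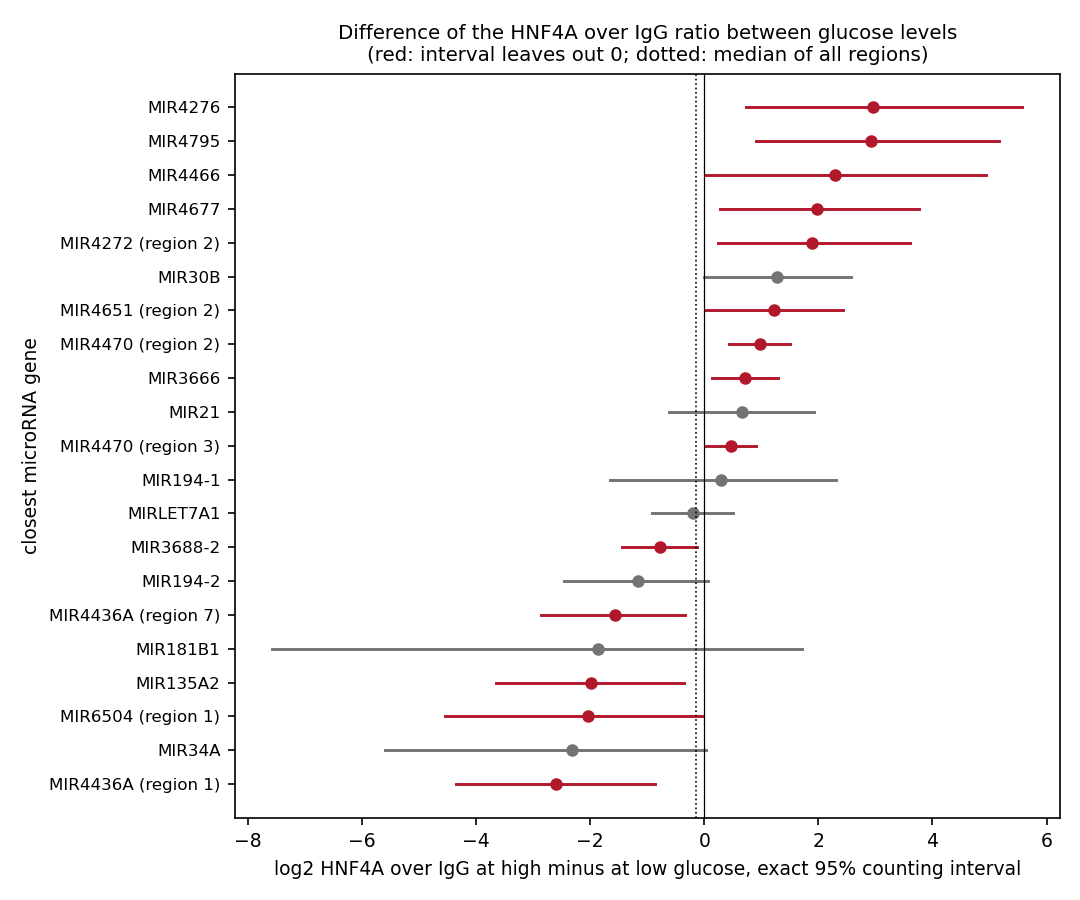
Difference of the log2 HNF4A over IgG ratio, high minus low glucose, with its exact 95% counting interval, for the 14 microRNA regions whose interval leaves out 0 (red) and for the 7 regions of the liver, liver cancer and let-7 lists (grey); the dotted line is the median of all regions, -0.15. MIR4276 and MIR4795 stand near 3, the lowest MIR4436A region at -2.59, and every grey interval reaches across or to 0.

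In the authors' deposited table for high glucose, 0 microRNA regions (and 0% of all regions) had a false discovery rate (FDR) under 0.05, and the lowest member FDR was 0.865. Without adjustment, the same authors' deposited table held 13 microRNA regions with a p under 0.05 above IgG and 0 below it, where 4.96% and 0.0188% of all regions were so placed. The lowest p in the authors' deposited table at high glucose was 0.0113, for MIR3128. At low glucose the authors' deposited table held 0 members (0% of all regions) with an FDR under 0.05, a lowest FDR of 0.82, and 7 members above IgG with an unadjusted p under 0.05 (all regions 3.04%). The lowest of these in the authors' deposited table was 0.00976, for MIR6772, inside the kinesin gene KIFC3. In the authors' deposited table of HNF4A at high over low glucose, the counts were 0 for the FDR (0% of all regions), with a lowest member FDR of 0.914, and 11 higher and 2 lower for the unadjusted p (4.39% and 0.225%). MIR1910 had the lowest p of that authors' deposited table among members, 0.0101.

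The proteins that make microRNAs were listed alongside as the other genes of the pathway. Of 48 genes of the processing machinery, 17 had a region, 18 regions in all. HNF4A exceeded IgG in 12 of the 18 in the high glucose libraries and in 16 in those at low glucose, where 84.2% and 91.5% of all regions did. At least a 2-fold excess was found in 3 and 5 (41.6% and 46.8% of all regions), and the median ratios were 0.31 and 0.72. Both medians were below those of all regions, 0.79 and 0.94. DGCR8, the RNA-binding partner of Drosha, held 23 HNF4A and 6 IgG reads at high glucose and 21 and 2 at low glucose, with ratios of 1.79 (0.46 to 3.38) and 3.37 (1.33 to 6.5). DDX17, a helicase of the Drosha complex, had 1.32 (0.49 to 2.21) and 2.21 (1.01 to 3.63). SRSF3, a splicing factor that also aids hairpin recognition, had a ratio of 4.02 (1.36 to 9.40) at high glucose, from 18 HNF4A reads and a listed 1 for IgG, with 13 and 4 reads at low glucose. LIN28A, which blocks let-7 maturation, was lower than IgG at high glucose, at -0.74 (-1.40 to -0.10), and close to it at low glucose, at 0.13 (-0.56 to 0.82). Of these 18 regions, 10 held more scaled HNF4A reads at the high glucose level (81.8% of all regions), 0 by 2-fold or more (6.78%), and the median log2 ratio was 0.26 for HNF4A and 0.59 for IgG.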

How the data were processed

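The submitters' processing notes name the hg19 build, Bowtie 1.1.2, bcl2fastq, HOMER, DiffBind and MACS, without settings. How regions were chosen is not given in the sources used. All 3 tables the authors deposited cover the same 5326 regions. Per the file headers, each row holds levels of both sides, a fold, a p-value, an FDR and the closest gene. The authors' levels and folds are log2 values. The deposited p-values and FDRs were read as given, and no test across conditions was made, since each group is 1 library.

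Raised from log2, the levels of each library were whole multiples of a fixed step (100% of values, within 0.01), which gave the reads and relative library sizes of 1.10 (HNF4A high glucose), 0.993 (IgG high), 1 (HNF4A low) and 0.982 (IgG low). Reads over all regions numbered 402237, 249744, 295460 and 198683; total depth is not given. A listed 1 may be 0 or 1 (IgG: 42 regions at high glucose, 58 at low glucose). Starts in the files count from 0 and are printed from 1. Log2 ratios of scaled reads carry exact 95% Clopper-Pearson intervals (SciPy 1.17.1), and differences of ratios exact conditional intervals (R 4.3.3). Both were tested on simulated independent reads, so their coverage with PCR copies was not tested. The closest gene is the authors' assignment and no distance to it is given. Host genes were matched also by older symbols.

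Named regions are, per comparison, the 6 highest and 4 lowest among members at or above the members' median level, every member of the microRNA lists, and genes with 2 or more regions, a shared seed or a member within 50 kb; where a gene has many regions, some are given by their range. Others are named where a count needs them or where the values are the extremes, chosen after those values were seen. The members, gene lists and rules were chosen with earlier results of these data known. Alternatives were centring, a 1.5-fold threshold, read and length minimums and 1 added read. The regions of 1 gene named by this rule are not reported here.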

Additional observations from a re-analysis of the deposited data

Results flagged for a closer look

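The HNF4A over IgG log2 ratio differed between glucose levels, with a counting interval of the difference (high minus low glucose) that left out 0, in 14 microRNA regions. The same was found in 4% of all regions above 0 and in 7.42% below it, and the comparison is of 4 libraries, with no replicates.

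The difference was above 0 in 9 regions. MIR4276 stood at 2.96, MIR4795 at 2.92, MIR4466, within the chromatin remodelling gene ARID1B, at 2.28, and MIR4677, within SDCCAG8, at 1.98. In these 4 regions the IgG library at high glucose held 3 to 7 reads. MIR4272 stood at 1.89 and the higher region of MIR4651 at 1.22. MIR3666, within the transcription factor gene FOXP2, stood at 0.72 (0.14 to 1.29), on 168 HNF4A and 78 IgG reads at high glucose and 117 and 97 at low glucose. Regions of MIR4470 stood at 0.97 and 0.47, and they are among the deepest members, with 228 and 297 HNF4A reads at high glucose.

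The difference was below 0 in 5 regions. The shortest MIR4436A region stood at -2.59 and another at -1.57, MIR6504, within CMIP, at -2.03, MIR135A2 at -1.98 and MIR3688-2, within RAPGEF2, at -0.78 (-1.44 to -0.13). The MIR3688-2 region held 117 HNF4A and 113 IgG reads at high glucose and 85 and 52 at low glucose, so that HNF4A exceeded IgG at low glucose alone.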

How the results depend on the processing

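Of 38 recomputed values for 7 results, 32 stayed within limits, 6 moved and 0 changed sign. A count cannot change sign, and a change was flagged only for a median of at least 1, so this 0 carries little weight. The limits were 1.5 times for a count and the counting interval of the middle region for a median. That interval is wide for a median of many regions, so staying within it says little. The median of HNF4A at high over low glucose counted as unmoved although centring took it from 0.40 to 0.04. Centring on the median ratio of all regions lowered the count at least 2-fold above IgG to 44 (high glucose) and 21 (low glucose), and the count at least 2-fold higher for HNF4A at high than at low glucose to 1 (1.69% of all regions). The centred medians over IgG were 0.40 (high glucose) and 0.19 (low glucose), and the centred median of HNF4A at high over low glucose was 0.04. At a 1.5-fold threshold, 51 members were higher for HNF4A at high than at low glucose (31.5%; all regions 28.8%). By construction, centring subtracts the excess that most regions share. At high glucose the centred share stayed above that of all regions (27.2% against 18.0%), and at low glucose it did not (13.0% against 13.4%). Members with few IgG reads have the widest intervals, and a ratio that rests on 1 to 3 IgG reads is loosely bounded above. No paired analysis was possible because each group holds 1 library.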
